A study of Mus musculus with 3008 samples.

Results

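The NF-kB genes described here are 10 listed genes of the pathway: the subunit genes Nfkb1, Nfkb2, Rela, Relb and Rel, the inhibitor genes Nfkbia, Nfkbid and Tnfaip3, and the targets Birc3 and Icam1. They were taken by symbol from a table of 23725 genes, and all 10 were found and passed the minimum of 30 counts over all libraries, as did 9580 genes in all. The counts are unique molecular identifiers (UMIs) from inDrops single-cell RNA sequencing of Tregs, the Foxp3+ subset of CD4+ T cells that keeps other immune cells in check. All cells came from male B6 mice aged 7 months with the Foxp3-Ires-Gfp reporter, in which the Foxp3 gene also drives green fluorescent protein, and were sorted as DAPI- TCRb+ CD4+ GFP+. The spleen library held 617 cells from mechanically dissociated tissue, and the colon lamina propria gave 2 libraries of 619 and 1772 cells (colon 1 and colon 2) from tissue digested with collagenase and dispase. No treatment separates the groups, and the effects of tissue and of its dissociation cannot be told apart. Animals are not named in the labels, so each tissue is 1 sample, no test across animals was possible, and every interval is a 95% interval that covers counting error only. Both colon ratios share the spleen library.

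The spleen, colon 1 and colon 2 libraries summed to 1255946, 1253246 and 3916649 UMIs, and the median cell held 1767 to 2026.5 UMIs. The libraries shared 5 to 11 cell barcodes in pairs. After thinning each cell to 1000 UMIs, Foxp3 was read in 20.2%, 32.0% and 25.2% of spleen, colon 1 and colon 2 cells, and the B cell gene Cd79a in at most 0.326% of any library. Epcam, an epithelial marker, was read in 2.77%, 1.64% and 4.01%. Of 51 listed marker genes of B cells, plasma cells, myeloid cells, granulocytes or mast cells, epithelium, stroma and erythroid cells, 43 had under 30 UMIs over the 3 libraries. Ribosomal protein genes took 27.7% of spleen UMIs and 17.2% and 15.97% of those of colon 1 and colon 2.

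NF-kB is a family of dimeric transcription factors. In resting cells the IkB proteins hold the dimers in the cytoplasm, and signals from T cell receptors, TNF family receptors or interleukin receptors activate IKK kinases, which mark IkB for destruction and free the dimers to enter the nucleus. The freed dimers switch on, among other genes, those of their own inhibitors, which ends the response, and in Tregs the pathway, above all the c-Rel subunit, is known for its part in Foxp3 expression and in the effector state of these cells.

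The best known feature of NF-kB regulated genes is the kB site near their start, so the promoters of the members were searched in the RefSeq promoter table of build GRCm38.p6, which gives 250 bases before and 50 after each start. It held 13 promoters for 8 of the 10 members, and Nfkb1 and Relb had no entry. The 10-letter kB consensus, searched on both strands, was present in 7 of these 13 promoters and in 5 of the 8 genes (Nfkb2, Rel, Nfkbia, Nfkbid and Tnfaip3), and in 4.51% of all 32851 promoters of the table. Among those 7, overlapping promoters of Nfkb2 share a match. The 9-letter sequence GGAATTTCC, searched on both strands and partly overlapping that consensus, was present in Nfkbia, Tnfaip3 and Icam1 and in 0.317% of all promoters. Neither was found in the promoters of Rela and Birc3. A match is a description of the letters and not a shown binding site. The stretches with matches are given because the members include both the inhibitors that NF-kB is known to induce and its own subunits, whose levels follow. Each is read 5′ to 3′ on the gene's strand with the matches in capitals. Bases are counted back from the start, with -1 the base before it. Except in Nfkb2, no printed base lies in an exon of the GENCODE vM21 annotation.
Nfkbia, chr12:55492648-55492747, minus strand, bases -100 to -1: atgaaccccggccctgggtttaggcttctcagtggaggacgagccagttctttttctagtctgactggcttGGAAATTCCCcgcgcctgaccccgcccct
Tnfaip3, chr10:19015411-19015510, minus strand, bases -100 to -1: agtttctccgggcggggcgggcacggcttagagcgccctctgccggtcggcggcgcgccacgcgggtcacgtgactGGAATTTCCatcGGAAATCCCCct
Nfkbid, chr7:30422156-30422255, plus strand, bases -250 to -151: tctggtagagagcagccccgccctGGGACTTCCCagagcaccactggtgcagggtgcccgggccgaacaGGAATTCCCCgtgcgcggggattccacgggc
Rel, chr11:23770980-23771079, minus strand, bases -110 to -11: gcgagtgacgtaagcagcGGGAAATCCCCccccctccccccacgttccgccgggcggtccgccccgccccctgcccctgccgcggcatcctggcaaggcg
Icam1, chr9:21015740-21015839, plus strand, bases -200 to -101: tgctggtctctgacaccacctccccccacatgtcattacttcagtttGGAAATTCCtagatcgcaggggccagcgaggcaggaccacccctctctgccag
Nfkb2, chr19:46304691-46304720, plus strand, bases -46 to -17: tcgtcacGGGAATTCCCCccctcggggggc

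In Nfkbia the match begins 29 bases before the start. In Tnfaip3 the stretch carries the 9-letter match from base -24 and a consensus match from base -12 on the opposite strand. The Nfkbid stretch lies before the second of 3 RefSeq starts and holds 2 consensus matches, from bases -226 and -181. The capitals of Rel and of Nfkb2 each cover overlapping matches on both strands, from bases -92 and -39. Outside the printed stretches Nfkb2 had a further match from base -11, and Tnfaip3 a consensus match from base -125. Nfkb2 was the member with a consensus match at each of its 3 starts. The match at its last start is the same stretch of bases as a match at the start before it.

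Among the subunit genes, Nfkb1 and Nfkb2 encode the precursors p105 and p100 of the DNA-binding subunits p50 and p52. Nfkb1 (chromosome 3, 135584655 to 135691547, GRCm38, minus strand) had 321, 577 and 2112 UMIs in spleen, colon 1 and colon 2, which is 256, 460 and 539 counts per 1000000 UMIs (CPM). Spleen was lowest, colon 2 was above colon 1, and no pair of the 3 CPM intervals overlapped. The ratio to spleen was 1.80-fold (interval 1.57 to 2.07) in colon 1 and 2.11-fold (1.88 to 2.38) in colon 2. Nfkb2 (chromosome 19, 46304320 to 46312385, plus strand) had 64, 190 and 724 UMIs, or 51.0, 152 and 185 CPM. Both colon libraries lay above spleen, 2.98-fold (2.23 to 4.01) and 3.63-fold (2.81 to 4.76). On the other strand Nfkb2 overlaps Psd, which had 0, 3 and 2 UMIs in the same order.

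Rela, Relb and Rel encode the subunits that carry the activation domain: RelA (p65), the main subunit of the classical pathway, RelB, the partner of p52 in the alternative pathway, and c-Rel, the lymphoid subunit. Rel (chromosome 11, 23736847 to 23770970, minus strand) had 21, 95 and 210 UMIs, or 16.7, 75.8 and 53.6 CPM. It was 4.53-fold (2.80 to 7.66) above spleen in colon 1 and 3.21-fold (2.04 to 5.29) in colon 2, and the spleen value rests on 18 cells. Among the subunits, Rel thus had the highest ratio to spleen in colon 1 and Nfkb2 in colon 2, with intervals that overlap each other.

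Relb (chromosome 7, 19606217 to 19629438, minus strand) had 49, 98 and 313 UMIs, or 39.0, 78.2 and 79.9 CPM. The colon libraries were nearly equal and stood at the 2-fold line, at 2.004-fold (1.41 to 2.88) and 2.05-fold (1.51 to 2.83). Rela (chromosome 19, 5637483 to 5648130, plus strand) had 74, 144 and 386 UMIs, or 58.9, 115 and 98.6 CPM. Its ratios, 1.95-fold (1.46 to 2.62) and 1.67-fold (1.30 to 2.18), were the lowest of the Rel-domain genes in colon 2.

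Among the inhibitor genes, Nfkbia encodes IkBa, the inhibitor that masks the dimers in the cytoplasm and is itself a rapid target of NF-kB. Nfkbia (chromosome 12, 55489410 to 55492647, minus strand) had 1213, 2440 and 6922 UMIs, or 966, 1947 and 1767 CPM. Both colon libraries were near 2-fold spleen, at 2.02-fold (1.88 to 2.16) and 1.83-fold (1.72 to 1.95). Nfkbid encodes IkBNS, a nuclear IkB protein needed for the development of Tregs in the thymus. Nfkbid (chromosome 7, 30421732 to 30428746, plus strand) had 125, 297 and 1049 UMIs, or 99.5, 237 and 268 CPM. It stood 2.38-fold (1.93 to 2.96) and 2.69-fold (2.23 to 3.27) above spleen.

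Tnfaip3 encodes A20, a ubiquitin-editing enzyme that shuts off signalling from TNF and Toll-like receptors upstream of IKK. Tnfaip3 (chromosome 10, 19000910 to 19015657, minus strand) had 217, 1390 and 4236 UMIs, or 173, 1109 and 1082 CPM. The colon libraries did not differ from each other beyond counting error and were 6.42-fold (5.56 to 7.44) and 6.26-fold (5.46 to 7.21) above spleen. These were the highest ratios of the 10 genes in both colon libraries.

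The targets were cIAP2, a ubiquitin ligase of TNF receptor complexes encoded by Birc3, and the adhesion molecule ICAM-1, which binds the integrin LFA-1. Icam1 (chromosome 9, 21015985 to 21028817, plus strand) had 42, 144 and 334 UMIs, or 33.4, 115 and 85.3 CPM, which is 3.44-fold (2.42 to 4.97) and 2.55-fold (1.85 to 3.604) spleen. Birc3 (chromosome 9, 7848699 to 7873186, minus strand) had 86, 148 and 474 UMIs, or 68.5, 118 and 121 CPM. Its ratios of 1.72-fold (1.31 to 2.28) and 1.77-fold (1.40 to 2.25) were among the lowest of the members. Icam1 overlaps an antisense gene model that is not in the table, and whether the counting used strand is not given in the sources used here.

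**Figure D1:**
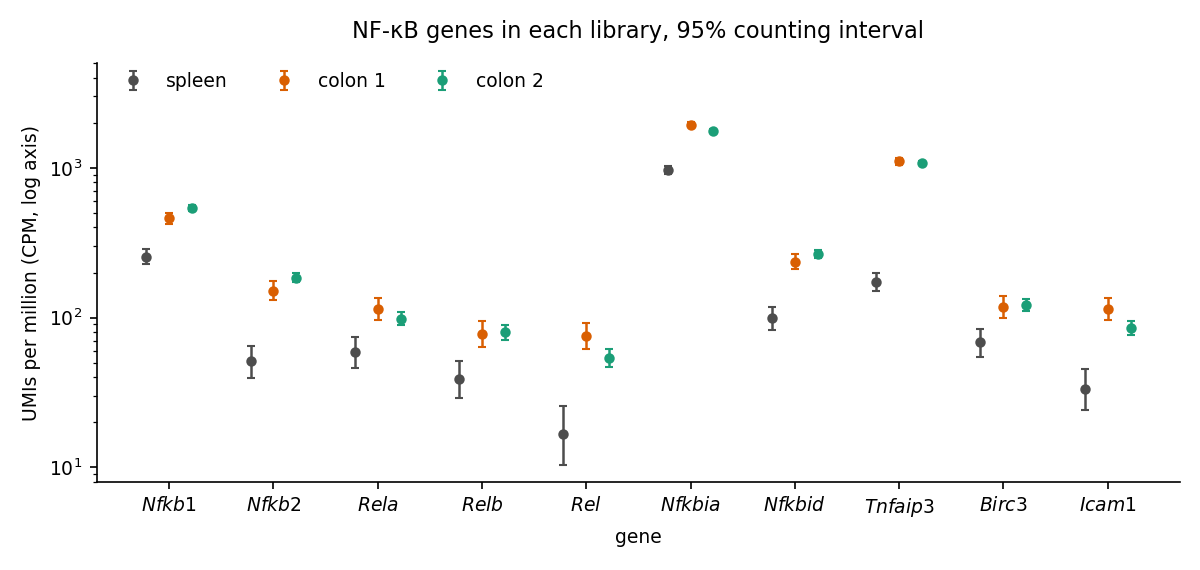
CPM (log axis) of each NF-kB gene in the spleen, colon 1 and colon 2 libraries, with 95% Poisson intervals for counting error. For each gene the spleen point lies lowest, and Tnfaip3 shows the widest step, from 173 CPM (spleen) to 1109 and 1082 CPM (colon).

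For all 10 members the CPM of each colon library exceeded that of spleen, and all 10 ratio intervals lay above 1-fold in both. By the rule that both colon libraries exceed spleen by 2-fold or more, 6 of the 10 were called (Nfkb2, Relb, Rel, Nfkbid, Tnfaip3 and Icam1), where 10.4% of all 9580 measured genes were called higher, and 0 were called lower, where 5.40% were. For 3 of them (Nfkb2, Rel and Tnfaip3) the lower end of the interval was itself above 2-fold in both libraries. No share of all genes is given beside the counts of higher CPM and of intervals. Those counts are not read as a result about the members. The median of the members' mean log2 ratios was 1.18, against -0.03 over all measured genes. The members were chosen with earlier results of these data known, so contrasts with all genes here and below are descriptions only. Nfkb1 passed 2-fold only in colon 2 and Nfkbia only in colon 1, and Rela and Birc3 in neither. Summed over the members, the levels of spleen, colon 1 and colon 2 were 1761, 4407 and 4279 CPM.

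The colon libraries differed from each other by less than from spleen. The log2 ratio of colon 2 to colon 1 ran from -0.50 for Rel to 0.29 for Nfkb2. For 5 members (Nfkb1, Nfkb2, Rel, Nfkbia and Icam1) this ratio's interval excluded 0, with no share of all genes given. Of the 10 genes, 5 were higher in colon 1 and 5 in colon 2.

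**Figure D2:**
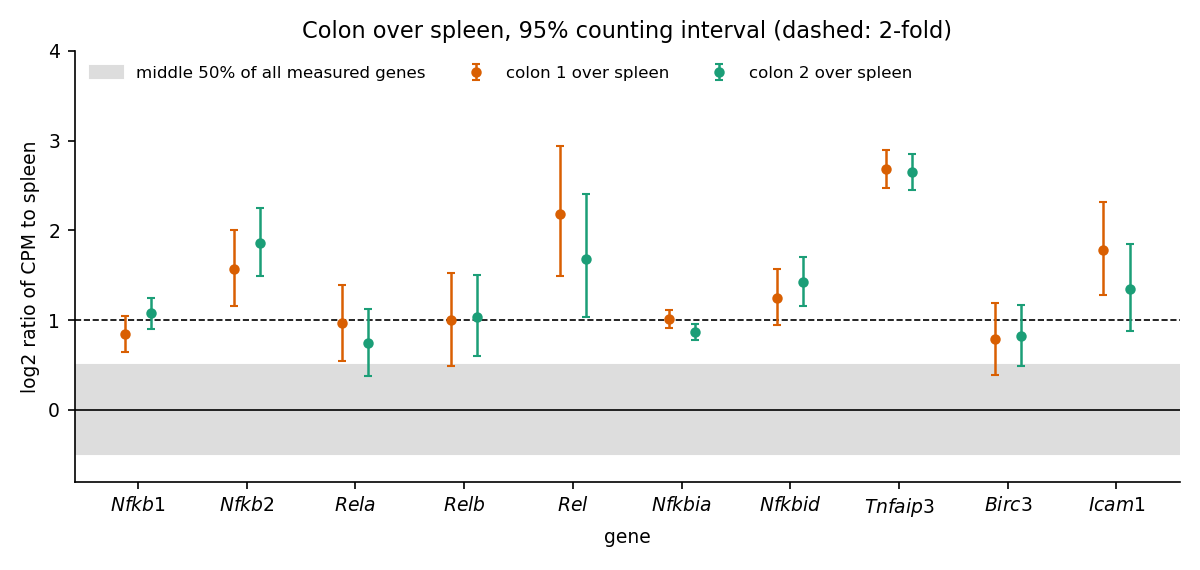
Log2 ratio of CPM in each colon library to the spleen library for the NF-kB genes, with exact 95% counting intervals, the 2-fold line (dashed) and the middle 50% of all measured genes (grey band). All 20 intervals lie above 0, and 6 genes have both points on or above the 2-fold line.

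Genes known to respond to tissue dissociation and heat shock were higher in colon as well. Of 20 such listed genes, 8 were called higher and 1 lower, and their sums in spleen, colon 1 and colon 2 were 5293, 9278 and 10562 CPM. Fosb was at 17.5, 393 and 428 CPM, and Hspa1a had no UMI in spleen and stood at 119 and 141 CPM in colon. Among cells with no UMI of Fosb, Hspa1a or Hspa1b (603, 416 and 1096 cells), the members' median log2 ratio was 1.08 and 5 members were called, Relb dropping below 2-fold. In these cells 9.76% of all measured genes were called higher. The part of dissociation in the ratios of the remaining cells was not tested. With totals that leave out ribosomal protein genes, the median of all genes was -0.24 and that of the members 0.97, with 5 members called. That scaling moved the split of all genes from 995 higher and 517 lower to 773 higher and 820 lower.

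Each member was read in a larger share of colon than of spleen cells. In cells thinned to 1000 UMIs, Tnfaip3 was read in 9.95% (exact Clopper-Pearson interval 7.70 to 12.6) of spleen cells, 44.9% (40.9 to 49.0) of colon 1 cells and 51.7% (49.3 to 54.0) of colon 2 cells. Nfkbia was read in 43.6%, 62.8% and 61.7% in the same order. The other members were read in 2.12% to 14.7% of spleen cells, while the myeloid gene Lyz2 was read in 0% to 0.229%. The intervals of spleen and colon overlapped for Rela in both colon libraries, for Relb and Birc3 in colon 1 and for Rel in colon 2. Between the colon libraries the share of Tnfaip3 was higher in colon 2 while its CPM was not (1109 in colon 1 and 1082 in colon 2), so no order of the colon libraries is read from shares. The unthinned shares were, for Tnfaip3, 13.0%, 54.8% and 66.3%, at median depths of 1847, 1767 and 2026.5 UMIs.

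**Figure D3:**
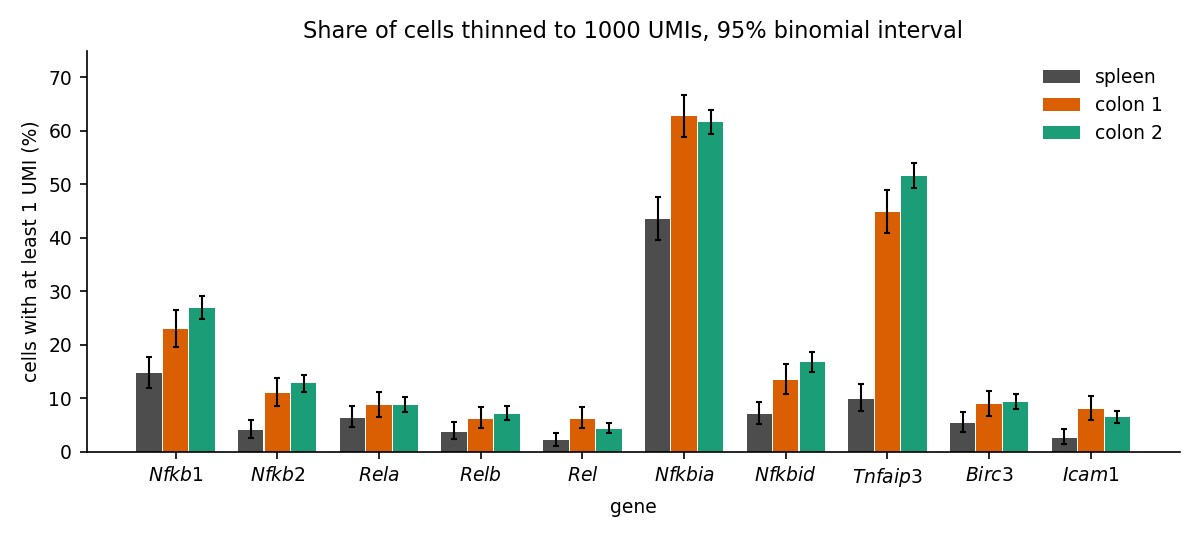
Percent of cells with at least 1 UMI of each NF-kB gene after thinning every cell to 1000 UMIs, with exact 95% binomial intervals, in spleen, colon 1 and colon 2. Tnfaip3 goes from 9.95% of spleen cells to 44.9% and 51.7% of colon cells, while Nfkbia is already read in 43.6% of spleen cells.

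A spleen cell carried a median of 1 and a colon cell of 2 detected members after thinning, and 32.3% of spleen cells, 14.8% of colon 1 cells and 11.7% of colon 2 cells had none. Cells with 4 or more members made up 1.47%, 12.6% and 14.2%. UMIs were not spread evenly over cells: 321 Nfkb1 UMIs of spleen came from 123 cells, and the top 10% of cells held 78.8% of them, against 66.7% and 56.4% in the colon libraries. Counting intervals, which treat UMIs as independent, are therefore too narrow for such genes. With each cell counted once per gene, a setting chosen after seeing the data, 4 members stayed at least 2-fold (Nfkb2, Rel, Tnfaip3 and Icam1), and the median log2 ratio was 0.94. By that setting 8.54% of all measured genes were called higher. The log2 ratio of Nfkbia went from 0.94 to 0.32.

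The other genes of the pathway were taken from lists by role, of which 68 of 77 genes were measured. By the same rule 22 of the 68 were called higher and 4 lower, beside 10.4% and 5.40% of all measured genes. These lists too were chosen with earlier results of these data known. Of the 22, the receptors held 7, the adaptors and upstream kinases 3, the other IkB proteins 4 and the other targets 8.

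Of the receptors, 7 of 11 measured were called higher and 0 lower, with a median log2 ratio of 1.47. Tnfrsf9, the costimulatory receptor 4-1BB, was at 219 CPM in spleen and 1351 and 1632 in colon. Tnfrsf1b, the TNF receptor TNFR2 that is typical of Tregs, was at 218, 982 and 1326 CPM. Il1rl1, which encodes ST2, the receptor for interleukin-33, was at 29.5, 306 and 247 CPM, and its log2 ratios of 3.37 and 3.07 were the highest of the role.

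Downstream of the receptors, 3 of 19 measured adaptors and kinases were called higher and 0 lower, and their median log2 ratio was 0.01. Traf1, an adaptor of TNF receptors that is itself an NF-kB target, was at 85.2, 261 and 343 CPM. Bcl10, a part of the complex that links the T cell receptor to IKK, was at 61.3, 168 and 156 CPM. Map3k14, the kinase NIK of the alternative pathway, was at 15.1, 29.5 and 47.5 CPM and was below 2-fold in colon 1. Of the 5 IKK and related kinases, 0 were called higher and 1 lower. That gene, Ikbke, had 102, 29 and 94 UMIs in spleen, colon 1 and colon 2, with log2 ratios of -1.81 (-2.46 to -1.20) and -1.76 (-2.18 to -1.34). Ikbkb, the catalytic subunit of the classical complex, was at 54.9, 46.3 and 30.1 CPM, and the related kinase Tbk1 at 32.6, 53.5 and 65.9 CPM.

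The genes listed as inhibitors outside the 10 members differed by class. Of 5 genes listed as other IkB proteins, 4 were called higher (Nfkbib, Nfkbie, Nfkbiz and Bcl3) and 1 lower (Ankrd42). Nfkbie was at 15.1, 72.6 and 101 CPM, and Nfkbib at 16.7, 47.1 and 56.2 CPM; both encode cytoplasmic IkB proteins. Nfkbiz, a nuclear IkB protein, was at 76.4, 358 and 323 CPM. Of 11 other measured brakes, 0 were called in either direction, with a median log2 ratio of 0.31. Peli1, a ubiquitin ligase, was at 560, 735 and 889 CPM, and Itch, another ligase, at 42.2, 18.4 and 32.7 CPM. Tnip3, a binding partner of A20, had 0 UMIs in spleen and reached 2.39 and 6.89 CPM in colon, where 3 counts in spleen would be 2.39 CPM.

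Of 17 other measured targets, 8 were called higher and 2 lower, with a median log2 ratio of 1.23. Of those 8, the genes Bcl2a1a, Bcl2a1b and Bcl2a1d are near-identical copies whose counts are uncertain. Cxcl10, a chemokine for CXCR3+ T cells, was at 32.6, 369 and 334 CPM, and the activation marker Cd83 at 101, 496 and 578 CPM. The lower ones were Lta, which encodes lymphotoxin alpha, at 38.2, 7.98 and 5.62 CPM, and Ltb. Lta had log2 ratios of -2.26 (-3.41 to -1.26) and -2.77 (-3.57 to -2.01).

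**Figure D4:**
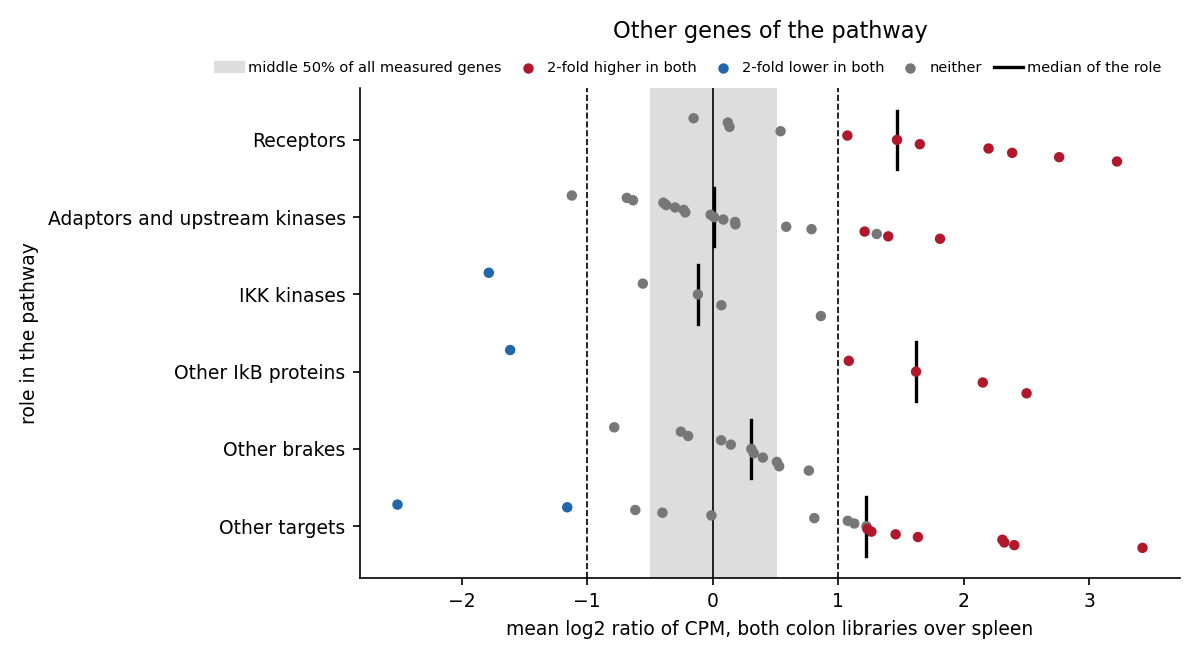
Mean log2 ratio of colon to spleen over both colon libraries for the 68 other measured genes of the pathway, by role, with the median of each role (black bar), the 2-fold lines (dashed) and the middle 50% of all measured genes (grey band). Receptors, other IkB proteins and targets have medians of 1.47, 1.62 and 1.23, while adaptors and kinases sit around 0.01 and IKK kinases around -0.12.

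To see which colon cells carried the transcripts, all cells were clustered with the 10 members left out. Of the 617 spleen cells, 610 fell into 1 cluster with 11 and 26 cells of colon 1 and colon 2, in which 9 of 12 markers of resting lymphoid Tregs exceeded the other cells by 2-fold or more. So colon clusters can be compared with spleen only across libraries. The 4 colon clusters described hold 422 of 619 cells of colon 1 and 1107 of 1772 cells of colon 2, and are called by leading genes; the other colon cells are not described by cluster, apart from small groups in colon 2. The Il1rl1-high cluster (179 and 541 cells) is called GATA3-ST2-like. It had 4 of 7 measured genes of the GATA3-ST2-Helios marker list at least 2-fold up (Gata3, Il1rl1, Areg and Penk). Nrp1 of that list was 2-fold up in the cluster of the spleen cells and not in the Il1rl1-high cluster. Of 2 measured epithelial markers, Epcam was also 2-fold up in the Il1rl1-high cluster. The Hspa1a-high cluster (137 and 280 cells) was led by Hspa1a, Hspa1b and Fosb and was given no cell type name. The Hey1-high cluster (81 and 217 cells) had 3 of 4 measured follicular markers up (Bcl6, Cxcr5 and Hey1) and is follicular-like. Pdcd1 of that list was at least 2-fold up in the Il1rl1-high cluster and not in the Hey1-high cluster. The Hey1-high cluster also had 6 of 11 measured markers of resting lymphoid Tregs at least 2-fold up, with Ccr7 at 13.1-fold its second gene by fold. The Cxcl10-high cluster (25 and 69 cells) had 8 of 9 interferon genes at least 2-fold up. The last was led by Iigp1, and Cxcl10, a pathway target above, was among its leading genes.

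Of the 4 colon clusters described, the Il1rl1-high cluster had the highest summed level of the members, 7525 CPM (colon 1) and 6475 CPM (colon 2), next to 1761 in the spleen library. Nfkbia alone made up 3521 and 2906 CPM of these 2 colon sums, and 966 CPM of the spleen sum. The Cxcl10-high cluster was at 6249 and 4817 CPM, the Hspa1a-high at 3412 and 4562, and the Hey1-high at 3334 and 3511. Each of the 4 was thus above the spleen library in both colon libraries. In the Il1rl1-high cluster all 10 members had intervals above spleen in both libraries and 9 were at least 2-fold, Rela being the exception in colon 2. In the other clusters described the counts with both intervals above spleen were 6 (Cxcl10-high), 4 (Hspa1a-high) and 3 (Hey1-high). Such a count depends in part on the number of cells, since fewer cells give wider intervals. No share over all genes is given beside these counts, those of the Il1rl1-high cluster included, and they are not read as a ranking.

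Tnfaip3 was the 1 member whose intervals lay above spleen in each of these clusters and in both libraries. Against 173 CPM in the spleen library it was at 1515 and 1320 CPM in the Il1rl1-high cluster, 1161 and 1403 in the Hspa1a-high, 1352 and 1335 in the Hey1-high and 1848 and 1187 in the Cxcl10-high cluster. Its lowest log2 ratio to spleen among them was 2.75 (2.48 to 3.02), in the Hspa1a-high cells of colon 1. Nfkb2 had both intervals above spleen in 2 of the 4, the Il1rl1-high and the Cxcl10-high.

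Nfkbia varied more between clusters. It was at 3521 and 2906 CPM in the Il1rl1-high cluster, but at 1071 and 1106 in the Hey1-high cluster, beside 966 in the spleen library. Nfkbid had the same order among these, with 519 and 480 CPM in the Il1rl1-high, 114 and 152 in the Hey1-high and 99.5 in the spleen library. In the Cxcl10-high cluster Nfkbid was at 610 and 280 CPM, in colon 1 above the Il1rl1-high value. In the Hspa1a-high cluster it was at 113 and 249 CPM. Nfkb1 in the Hspa1a-high cluster went in opposite directions, at 131 CPM in colon 1 (log2 ratio -0.97, -1.57 to -0.42) and 335 CPM in colon 2 (0.39, 0.11 to 0.67). Rel was highest in the Il1rl1-high cluster, at 131 and 93.98 CPM, and had 0 UMIs among the 25 Cxcl10-high cells of colon 1.

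**Figure D5:**
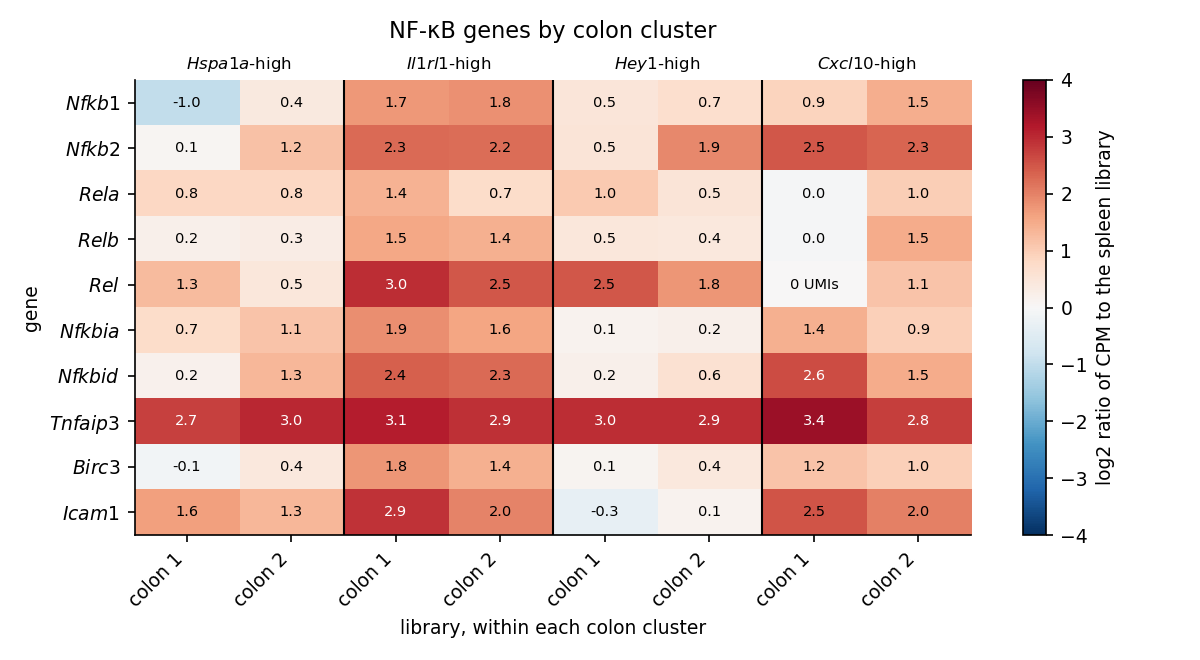
Log2 ratio of CPM to the whole spleen library for each NF-kB gene in the 4 colon clusters described, for colon 1 and colon 2 apart (red above spleen, blue below; a cell with no UMI is marked). Nfkb1, Rel, Nfkbia and Birc3 are highest in the Il1rl1-high columns of both libraries, and the Tnfaip3 row is at 2.75 or more throughout.

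The next comparison, chosen after seeing the data, stays within each colon library and its digestion: the Il1rl1-high cluster against all other colon cells (440 in colon 1 and 1231 in colon 2). The summed level of the members was 7525 against 3187 CPM in colon 1 and 6475 against 3319 CPM in colon 2. In the cluster, 9 of 10 members were higher in both colon libraries with intervals above 0. No share of all genes is given beside that count, and it is not read as a result about the members. By the 2-fold rule 5 were higher in both libraries (Nfkb1, Rel, Nfkbia, Nfkbid and Icam1), where 1.75% of 9034 measured genes were. The median log2 ratio was 1.30 for the members and -0.15 for all genes. Nfkbid was 4.10-fold and 2.74-fold higher, Icam1 3.90-fold and 2.05-fold, and Nfkbia 2.65-fold and 2.29-fold. Tnfaip3 differed less, at 1.59-fold (1515 against 950 CPM) and 1.35-fold (1320 against 977 CPM). Rela was the exception, at 156 against 98.8 CPM in colon 1 but 98.2 against 98.7 CPM in colon 2, a log2 ratio of -0.01 (-0.33 to 0.31). The dissociation genes were 1.34-fold higher in the Il1rl1-high cluster in both libraries, and their part in the difference, and that of Epcam, was not tested.

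Without the colon cells of the Il1rl1-high cluster, also a setting chosen after seeing the data, 3 members were still at least 2-fold above spleen in both libraries (Nfkb2, Rel and Tnfaip3), and the median log2 ratio was 0.76, where 9.92% of all genes were called. The mean log2 ratio was 0.28 for Birc3, 0.41 for Nfkb1, 0.43 for Nfkbia and 0.58 for Nfkbid, all still above 0. Without the Hspa1a-high cluster 7 members were called and the median was 1.27, where 10.2% of all genes were called higher.

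Colon 2 cells that clustered with the spleen cells (26 cells) had a member sum of 2955 CPM, between the spleen cells of the same cluster at 1767 CPM and the colon clusters with the highest sums. Tnfaip3 was at 309 CPM in them and at 177 in the spleen cells of that cluster, Nfkb1 at 560 and 261, and Nfkbia at 1526 and 957. Their Tnfaip3 value rests on 16 UMIs, and its log2 ratio to the spleen library was 0.84 (0.01 to 1.57). Dividing colon 2 cells (30 cells) were at 1856 CPM for the sum, with Nfkbia at 579.5 CPM, a log2 ratio of -0.74 (-1.07 to -0.42), and Nfkb2 at 228 CPM, a log2 ratio of 2.16 (1.51 to 2.79). Colon 1 had too few cells of either kind to give a value.

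Within the spleen library, where all cells had the same dissociation, a cluster led by Il10, Ccr2 and S100a4 (177 cells) was set against the other 440 cells. The member sum was 1.30-fold higher there, 2076 against 1602 CPM. Much of that sum was Nfkbia, with 518 of 876 member UMIs in the cluster and 695 of 1336 in the other cells. Nfkbia was 1.47-fold higher (1228 against 833 CPM) and Tnfaip3 1.598-fold (230 against 144 CPM), both with intervals above 0 on the log2 scale. Icam1 was 2.64-fold higher, from 24 and 18 UMIs, and was the only member past 2-fold, whereas Rela was lower, at 33.2 against 71.9 CPM (log2 ratio -1.12, -2.07 to -0.26). In all, 6 of 10 members were higher, 3 with intervals above 0 and 1 with an interval below 0. The share over all genes is not given beside these counts, so they are not read as a result about the members. The dissociation genes were also higher in that cluster, at 5728 against 5073 CPM (log2 ratio 0.18, 0.10 to 0.25), and their part in the difference was not tested. Several of these values changed with the clustering. At resolutions 0.5 and 1.2 the log2 ratio of Tnfaip3 was 0.22 (-0.19 to 0.62) and 0.03 (-0.51 to 0.53), so its difference rests on resolution 0.8. Rela was at -0.22 (-0.96 to 0.49) and -1.33 (-2.83 to -0.13), and Icam1 was 5.47-fold and 2.25-fold higher. At resolution 1.2 that cluster shrank to 91 cells, and the log2 ratio of the sum went from 0.37 to 0.14, with an interval of -0.01 to 0.29.

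Across single cells thinned to 1000 UMIs the members were only loosely tied. Over the 45 pairs the median Pearson r was 0.01 in spleen (613 cells), 0.05 in colon 1 (610 cells) and 0.04 in colon 2 (1744 cells). Nfkbia and Nfkbid, both inhibitors, had the highest smaller r of both colon libraries, at 0.18 in each and 0.13 in spleen. These are descriptions of sparse counts in cells that share a library and depth. Among 1715 genes with at least 500 colon UMIs, the genes whose pattern was most like that of Nfkbia in both colon libraries were Gadd45b (r 0.34 and 0.32), Nfkbiz (0.27 and 0.30), Tnfrsf4 (0.27 and 0.27), Klrg1 (0.27 and 0.26) and Il1rl1 (0.33 and 0.23). For Tnfaip3, 0 genes reached an r of 0.2 in both. The member sum per cell had an r of 0.29 (colon 1) and 0.28 (colon 2) with the sum of the dissociation genes. With the GATA3-ST2-Helios markers it was 0.34 and 0.32, and with the receptors 0.30 and 0.26. Markers of activated effector Tregs gave 0.11 and 0.13, and those of resting lymphoid Tregs -0.04 and 0.02. The part of dissociation in these values was not tested.

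Members were also more frequent in cells with a UMI of certain receptors. Thinned colon cells with an Il1rl1 UMI held 8.21 member UMIs per cell in colon 1 against 4.05 in cells without (2.03-fold, 1.86 to 2.20), and 6.59 against 4.07 in colon 2 (1.62-fold, 1.53 to 1.71). With a Tnfrsf9 UMI the ratio was 1.47-fold in colon 1, 1.37-fold in colon 2 and 1.53-fold in spleen (2.56 against 1.67 UMIs per cell). With a Tnfrsf1b UMI it was 1.11-fold, 1.06-fold and 1.23-fold in the same order. In spleen, cells with an Il1rl1 UMI numbered 16 and held 0.836-fold as many member UMIs, with an interval of 0.533 to 1.25 that includes no difference.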

How the data were processed

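The authors deposited a table of UMI counts per gene and cell, made from inDrops libraries. Per the submitters' processing notes, TopHat2, SAMtools and the mm10 build were used. Versions, annotation and how cells were chosen: not given in the sources used here. Library groups follow the labels, which call the second colon library both a second replicate and, by sample type, rep1b. Counts were summed per library and scaled to 1000000 UMIs (CPM). Ratios have exact conditional binomial intervals, CPM exact Poisson and shares exact Clopper-Pearson intervals, all at 95%. A gene with 0 UMIs was set to a floor of 3 counts. Calls needed a 2-fold ratio in both colon libraries. The ratio and its interval were tested on simulated data with UMIs drawn independently of each other. That test therefore does not cover UMIs that gather in few cells, as they do here.

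Clusters came from scanpy 1.11.5 (2000 variable genes, 20 components, 15 neighbours, Leiden 0.8 with igraph 0.11.9), with no doublet caller. Shares used cells thinned to 1000 UMIs, leaving out 4, 9 and 28 cells. The cluster compared with the other colon cells was the one with the highest Il1rl1 among clusters of at least 100 colon cells. Some results, among them those of 1 colon cluster with most of the colon cells outside the 4 described, are not reported here. Named pathway genes are the 3 of each role whose mean log2 ratio is farthest from 0, and genes like Nfkbia the top 5 by the smaller colon r. Alternatives were TMM (edgeR 4.0.16, R 4.3.3), median of ratios (DESeq2 1.42.0), other totals, filters, cell subsets and resolutions. The members and lists were chosen with earlier results of these data known.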

Additional observations from a re-analysis of the deposited data

How the results depend on the processing

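All 120 recomputed mean log2 ratios (10 members under 12 alternatives) stayed above 0, the lowest being 0.28. The count of members called higher was 6, and stayed between 5 and 7 under scaling, cell and library alternatives that were planned. It was 10 at a 1.5-fold and 2 (Rel and Tnfaip3) at a 3-fold threshold, with no share of all genes given for either. The count was 3 without the Il1rl1-high colon cluster. Without colon replicate 1 or 2 it was 7, the median log2 ratio over the members was 1.21 and 1.13, and the share of all measured genes called higher was 14.3% and 13.0%, since 1 library then decides the call. The median of 1.18 went to 0.97 with totals without ribosomal protein genes, 1.08 in cells with no UMI of Fosb, Hspa1a or Hspa1b, 0.76 without the Il1rl1-high cluster, 1.27 without the Hspa1a-high cluster and 0.94 with each cell counted once. The share of all genes called higher, 10.4%, was 11.7% among genes of at least 50 CPM, 7.49% among genes with at least 1 UMI and 8.07% without ribosomal totals. The mean log2 ratio of the member sum in the Il1rl1-high cluster to the other colon cells, 1.10, was 0.96 and 1.24 without colon replicate 1 and 2, and stayed above 1 at resolutions 0.5 (1.11) and 1.2. The spleen comparison, 0.37, was 0.14 at resolution 1.2. No paired analysis was possible because the labels name no animal, and the groups share fewer than 2 replicate numbers. With 1 spleen library and no animals named, no spread between animals could be measured, and intervals cover counting error only.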
